A study of Mus musculus with 6 samples.

Results

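The genes of the CD8 coreceptor, the CD3 complex, and the first signaling steps behind the T cell receptor were read in OT-I CD8+ T cells expanded for 6 days under different cytokine mixes. The 10 genes were chosen by name and were the coreceptor genes *Cd8a* and *Cd8b1*, the CD3 and zeta chain genes *Cd3d*, *Cd3e*, *Cd3g*, and *Cd247*, and the proximal signaling genes *Zap70*, *Lat*, *Cd5*, and *Ptprc*. They were 10 of the 57126 genes in the count table, and all 10 were among the 26154 genes tested. These genes and the gene lists used below were chosen with earlier results of these data known. Their counts beside the shares of all genes are therefore descriptions. CD8+ T cells were isolated from lymph nodes and spleens of OT-I mice, whose transgenic receptor recognizes an ovalbumin peptide, and were stimulated with nano-aAPCs, particles that carry the peptide on an MHC class I molecule together with anti-CD28. TEff cells (n = 3) were expanded in IL-2 and TRM-like cells (n = 3) in IL-2 with IL-15 and TGF-β added, so that the parts of IL-15 and TGF-β in any difference cannot be told apart. RNA was harvested on day 6 and total RNA libraries were sequenced. The labels do not say whether the 3 samples of a group were separate mice or cultures, and p-values then measure only the spread between these samples, which may be technical. The cells had been isolated as CD8+, so the presence of *Cd8a* and *Cd8b1* was set by the isolation.

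The T cell receptor has no signaling tail of its own and works with the CD3 chains. The gamma, delta, and epsilon chains (*Cd3g*, *Cd3d*, *Cd3e*) form dimers that contain epsilon, and the zeta chain (*Cd247*) forms a dimer with itself. When CD8 binds the MHC class I molecule, it brings the kinase Lck to the complex. Lck phosphorylates the CD3 and zeta tails, Zap70 docks on them, and Zap70 in turn phosphorylates the adaptor Lat, on which the downstream enzymes gather. CD45, encoded by *Ptprc*, keeps Lck ready by removing its inhibitory phosphate, and CD5 lowers the strength of receptor signaling. CD8 occurs as a heterodimer of the alpha chain (*Cd8a*) with the beta chain (*Cd8b1*) on conventional CD8+ T cells and also as a homodimer of the alpha chain, which is known from intraepithelial lymphocytes of the gut.

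The coreceptor genes are neighbors on chromosome 6 of GRCm39. *Cd8b1* (ENSMUSG00000053044) spans 71299772 to 71315087 and *Cd8a* (ENSMUSG00000053977) spans 71350411 to 71356157, both on the plus strand, with 35323 bases between them. The genes of the gamma, delta, and epsilon chains lie together on chromosome 9. *Cd3g* (ENSMUSG00000002033) spans 44880870 to 44891735 on the minus strand, *Cd3d* (ENSMUSG00000032094) spans 44893083 to 44899173 on the plus strand with 1347 bases between it and *Cd3g*, and *Cd3e* (ENSMUSG00000032093) spans 44910037 to 44920925 on the minus strand. *Cd247* (ENSMUSG00000005763) lies on chromosome 1 from 165616250 to 165704846. In the later GENCODE annotation used here for coordinates, 51.1% of the exon bases of *Cd247* also lie in exons of *Pou2f1* on the opposite strand, so its counts are uncertain where strand was not used in counting. *Ptprc* (ENSMUSG00000026395, 137990599 to 138103446, minus strand) and *Zap70* (ENSMUSG00000026117, 36800837 to 36821905, plus strand) are also on chromosome 1. *Lat* (ENSMUSG00000030742) spans 125962996 to 125968810 on chromosome 7 and *Cd5* (ENSMUSG00000024669) spans 10694480 to 10716366 on chromosome 19, both on the minus strand.

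Promoter sequences from RefSeq (table of GRCm38.p6) were found for 9 of the 10 genes (not for *Cd8b1*), and each was placed on GRCm39 by an exact match that was unique on its chromosome. The 250 bases before the RefSeq start site are shown 5′ to 3′ for the member that rose (*Cd8a*) and the member that fell (*Cd5*). They are also shown for the neighboring genes *Cd3g* and *Cd3d*, which moved together across samples as described below. For *Cd5*, *Cd3g*, and *Cd3d* the interval reaches into the gene span given above, which comes from GENCODE. Capitals mark matches on either strand to AGGAAG, a form of the site bound by ETS factors. AGGAAG was present in 29.6% of 32526 promoters of the same length. TGTGGT, the core of RUNX sites (14.0% of promoters), and the TATA box motif TATAAA (12.3% of promoters) were searched in the same way and were not found in these 4 sequences. AGGAAG was found 2 times before *Cd5*, 1 time before *Cd3d*, and not before *Cd8a* or *Cd3g*. Other forms of ETS and RUNX sites were not searched, so these counts do not show that a promoter lacks such a site. The intervals are chr6:71350161-71350410 for *Cd8a* (plus strand), chr19:10716339-10716588 for *Cd5* (minus strand), chr9:44891730-44891979 for *Cd3g* (minus strand), and chr9:44892834-44893083 for *Cd3d* (plus strand).
Cd8a: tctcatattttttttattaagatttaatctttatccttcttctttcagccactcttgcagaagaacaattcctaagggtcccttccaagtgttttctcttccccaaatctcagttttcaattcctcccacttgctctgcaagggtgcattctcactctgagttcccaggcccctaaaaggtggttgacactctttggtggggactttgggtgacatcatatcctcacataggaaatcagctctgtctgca
Cd5: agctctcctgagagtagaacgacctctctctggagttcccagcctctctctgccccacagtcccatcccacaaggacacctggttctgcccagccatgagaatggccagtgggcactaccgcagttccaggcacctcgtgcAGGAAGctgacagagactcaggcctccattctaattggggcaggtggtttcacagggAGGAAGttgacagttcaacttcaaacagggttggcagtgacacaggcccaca
Cd3g: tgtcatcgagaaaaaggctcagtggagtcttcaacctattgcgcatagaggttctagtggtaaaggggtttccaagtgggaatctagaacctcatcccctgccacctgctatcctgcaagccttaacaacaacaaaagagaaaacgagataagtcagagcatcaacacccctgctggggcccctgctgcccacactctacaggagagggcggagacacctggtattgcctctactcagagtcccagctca
Cd3d: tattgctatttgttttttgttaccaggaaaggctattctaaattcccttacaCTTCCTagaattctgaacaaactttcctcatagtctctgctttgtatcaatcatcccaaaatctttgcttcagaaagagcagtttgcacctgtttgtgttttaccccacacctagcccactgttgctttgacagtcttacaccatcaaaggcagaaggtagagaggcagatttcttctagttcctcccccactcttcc

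Between 18319013 and 23622621 reads per sample were counted on genes. TRM-like replicate 3 stood apart from the other TRM-like samples. It had at least 1 count on 24229 genes, as the TEff samples did (24235 to 24908), against 35130 and 35559 in TRM-like replicates 1 and 2. Of 14822 genes that had 10 or more counts in all 6 samples, 29.2% were more than 0.3 on the log2 scale below the mean of replicates 1 and 2 in replicate 3. The median log2 deviation of replicate 3 over these genes was 0.00274, so its values were not lower in general. By genes detected, replicates 1 and 2 were the samples unlike the TEff samples. Values are therefore also given without replicate 3, and the TRM-like group then rests on replicates 1 and 2 alone. The defining markers of a CD8+ αβ T cell were all present, with summed levels of 3463 to 3642 CPM (counts scaled to the TMM-adjusted library total) in the TEff cells and 3353 to 4946 CPM in the TRM-like cells over 6 genes. *Cd4* had 0 to 2 counts in every sample, and the 4 genes of the CD4 T cell list, led by *Zbtb7b*, summed to 35.9 to 41.5 CPM in the TEff cells and 18.4 to 26.0 CPM in the TRM-like cells. All 5 myeloid markers and all 4 erythroid and platelet markers were under 1 CPM in every sample, *Itgam* being the highest of the former (0.663 CPM at most) and *Itga2b* of the latter (0.995 CPM at most). The highest B cell marker, *Cd79b*, was at 4.57 to 8.39 CPM, and the highest dendritic cell marker, *Zbtb46*, at 1.89 to 4.67 CPM. The 4 NK markers summed to 18.8 to 34.9 CPM in the TEff cells and 1.94 to 12.1 CPM in the TRM-like cells, led by *Klrb1c*. The 5 γδ T cell markers summed to 181 to 242 CPM in the TEff cells and 187 to 226 CPM in the TRM-like cells, led by *Trdc* at 124 to 198 CPM. *Trdc* averaged 165 ± 28.9 CPM in the TEff cells and 135 ± 13.1 CPM in the TRM-like cells, with overlap, while *Trgc1* went from 8.98 ± 2.04 to 22.5 ± 16.5 CPM (41.5 CPM in TRM-like replicate 3) and *Trgc2* from 17.5 ± 2.15 to 35.5 ± 8.14 CPM (SD, n = 3 per group), each with every TRM-like sample above every TEff sample. *Trgc4* went from 9.97 ± 0.760 to 12.8 ± 1.58 CPM, also without overlap. *Sox13* went the other way, from 2.42 ± 0.895 to 1.82 ± 0.976 CPM, with overlap. The part of NK and γδ T cell RNA in the results was not tested.

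In the comparison of the groups, *Cd8a* rose, *Cd5* fell, and the other 8 members did not pass the test. To pass, a gene needed an absolute log2 fold change above 0.58 and, in the quasi-likelihood test of edgeR, a p-value under 0.05 once adjusted by Benjamini-Hochberg over the 26154 genes. This threshold was passed by 2 of the 10 members and by 3.01% of all genes tested (1.52% higher, 1.48% lower). In 5 of the 10 members the samples of the groups did not overlap, against 20.3% of all genes. All TRM-like samples lay above in 3 members and in 10.6% of all genes, and all lay below in 2 members and in 9.71% of all genes. These shares cover all genes tested, including genes with few counts, and were not taken over well-counted genes alone. The count of members past the threshold was also 2 with the adjusted p alone (3.03% of all genes) and over those 14822 well-counted genes (3.91% of these). The median log2 fold change was 0.25 over the members and 0.02 over all genes tested. In bulk RNA, more cells that express a gene and more RNA of that gene per cell cannot be told apart.

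**Figure D1:**
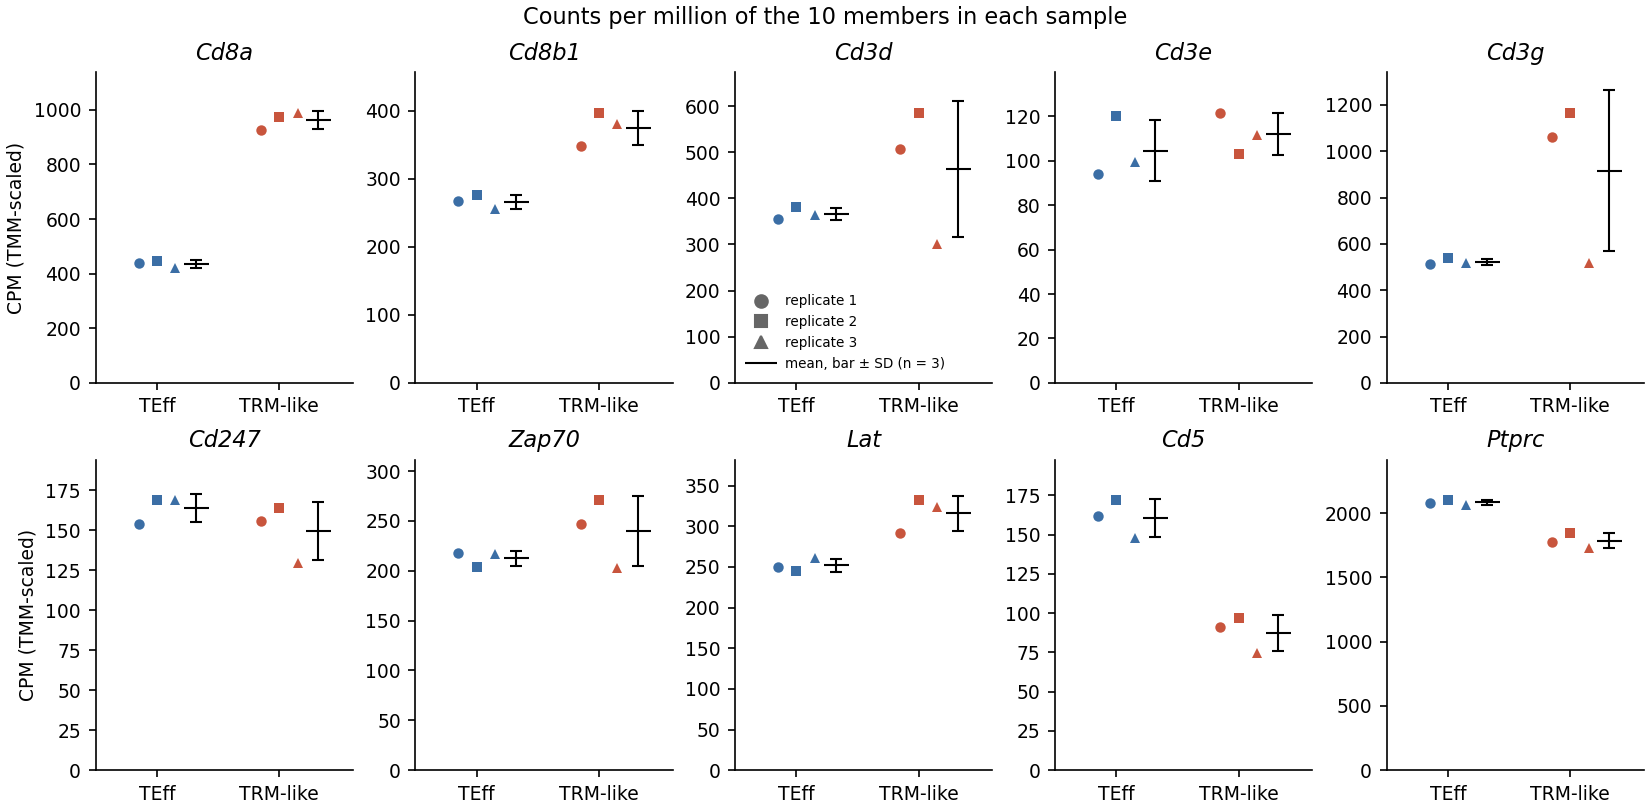
Level of each of the 10 members in CPM (y axis, from 0) in the 3 TEff (blue) and 3 TRM-like (red) samples, with symbols for the replicate and the mean ± SD beside each group. The TRM-like samples lie together above the TEff samples for *Cd8a*, while for *Cd3g* and *Cd3d* TRM-like replicates 1 and 2 lie above the TEff samples and replicate 3 does not.

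*Cd8a*, the gene of the CD8 alpha chain, was at 439, 448, and 421 CPM in TEff replicates 1, 2, and 3 and at 927, 972, and 989 CPM in TRM-like replicates 1, 2, and 3. The lowest TRM-like sample was thus above the highest TEff sample, and TRM-like replicate 3 did not stand apart from replicates 1 and 2. The mean went from 436 ± 13.4 to 963 ± 32.4 CPM (SD, n = 3 per group), a 2.21-fold rise with a log2 fold change of 1.14 (SE, the standard error of the fit, 0.13, adjusted p = 0.00219). *Cd8a* stayed past the threshold under all 15 other fits tried, with log2 fold changes between 1.11 and 1.17.

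*Cd8b1*, the gene of the CD8 beta chain, was at 267, 276, and 256 CPM in TEff replicates 1, 2, and 3 and at 348, 397, and 380.1 CPM in the TRM-like replicates. The groups did not overlap here either, with means of 266 ± 9.86 and 375 ± 24.8 CPM (SD, n = 3 per group). The log2 fold change of 0.50 (SE 0.13), a ratio of 1.41, did not pass the threshold (adjusted p = 0.0880). Without TRM-like replicate 3 it was 0.48 (adjusted p = 0.00592), under the fold change required. With DESeq2 in place of edgeR and all 6 samples it was 0.515 (adjusted p = 0.00575), also under that fold change. Adjusted p reached 0.356 among the 15 other fits, and in none of them (0) did *Cd8b1* pass.

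The coreceptor genes were thus higher in every TRM-like sample, by unequal factors. Within each library the ratio of *Cd8a* to *Cd8b1* needs no scaling between libraries. Per base of gene length, it was 0.779, 0.770, and 0.780 in TEff replicates 1, 2, and 3 and 1.26, 1.16, and 1.23 in the TRM-like replicates. All 3 TRM-like ratios were above all 3 TEff ratios, and the means were 0.776 ± 0.00566 and 1.22 ± 0.0519 (SD, n = 3 per group). The ratio was 1.57-fold higher in the TRM-like cells, a difference of 0.65 on the log2 scale (p = 0.10 in a two-sided exact permutation test, the smallest value that 3 samples against 3 allow, and 0.25 after Benjamini-Hochberg adjustment over 5 ratios). Leaving out any 1 of the 6 samples kept the difference between 0.62 and 0.68. The level of the ratio depends on the gene lengths taken. From the counts alone it was 1.64 ± 0.012 in the TEff cells and 2.57 ± 0.11 in the TRM-like cells, and with the exon bases of the later annotation, a choice made after seeing the data, 0.996 ± 0.00726 and 1.56 ± 0.0666 (SD, n = 3). Whether the *Cd8a* transcript exceeds the *Cd8b1* transcript in the TEff cells is therefore not settled by these counts. The factor between the groups is the same on every scale by arithmetic, since every sample is divided by the same lengths.

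**Figure D2:**
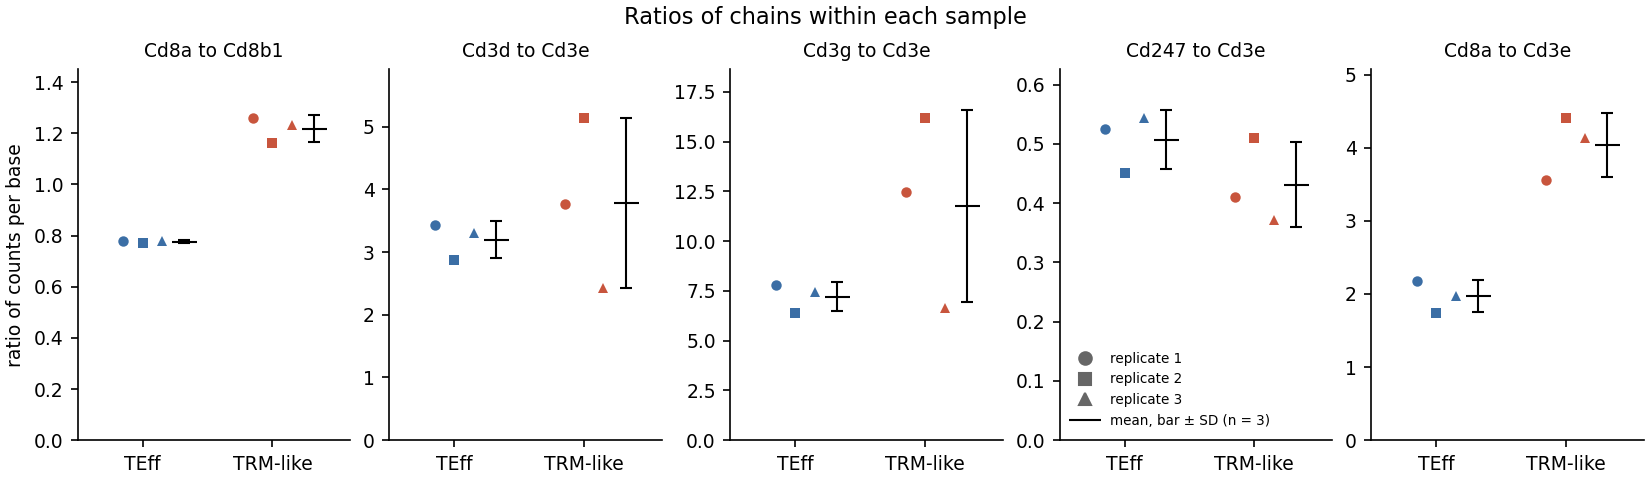
Ratios of counts per base of gene length within each sample (y axis, from 0) for *Cd8a* to *Cd8b1*, the CD3 and zeta chain genes to *Cd3e*, and *Cd8a* to *Cd3e*, with the mean ± SD (n = 3) beside each group. The *Cd8a* to *Cd8b1* ratio is near 0.776 in every TEff sample and between 1.16 and 1.26 in the TRM-like samples, while the ratios of *Cd3d*, *Cd3g*, and *Cd247* to *Cd3e* overlap between the groups.

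None of the 4 CD3 and zeta chain genes passed the test (0 higher, 0 lower). They differed in how the TRM-like samples spread. *Cd3g*, the gamma chain gene, was at 512, 537, and 518 CPM in TEff replicates 1, 2, and 3 and at 1060.4 and 1166 CPM in TRM-like replicates 1 and 2, but at 518 CPM in TRM-like replicate 3, within the range of the TEff samples. The log2 fold change was 0.81 (SE 0.27, adjusted p = 0.194). Without TRM-like replicate 3 it was 1.08 (SE 0.10, adjusted p = 7.53e-06) and passed the threshold, in a fit in which 14.0% of all genes (6.38% higher, 7.67% lower) and 3 of the 10 members did.

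*Cd3d*, the delta chain gene that lies beside *Cd3g*, followed the same order. It was at 356, 381, and 363 CPM in the TEff samples, at 508 and 585 CPM in TRM-like replicates 1 and 2, and at 300.1 CPM in TRM-like replicate 3, below every TEff sample. The log2 fold change was 0.34 (SE 0.23, adjusted p = 0.558), and 0.57 without TRM-like replicate 3 (adjusted p = 0.00195), just under the fold change required. The log2 deviation of TRM-like replicate 3 from the mean of replicates 1 and 2 was -1.1 for *Cd3g* and -0.864 for *Cd3d*, and 4.55% and 8.0% of the 14822 well-counted genes lay lower on that measure. Replicates 1 and 2 were above every TEff sample and replicate 3 was not in 14.7% of those genes, and among the members this held for *Cd3g*, *Cd3d*, and *Zap70*.

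*Cd3e*, the epsilon chain gene that is shared by both CD3 dimers, differed little. It was at 94.0, 120.1, and 99.5 CPM in the TEff samples and at 122, 103, and 112 CPM in the TRM-like samples, and the groups overlapped. Its log2 fold change of 0.10 (SE 0.14, adjusted p = 0.809) was smaller than its error, with TRM-like replicate 3 in the middle of its group. *Cd247*, the zeta chain gene, was at 154, 169, and 169 CPM in the TEff samples and at 156, 164, and 129 CPM in the TRM-like samples. The groups overlapped, TRM-like replicate 3 being the lowest of all, and the log2 fold change was -0.13 (SE 0.14, adjusted p = 0.727).

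The ratio of *Cd3g* to *Cd3e* per base was 7.21 ± 0.729 in the TEff cells and 12.5, 16.2, and 6.64 in TRM-like replicates 1, 2, and 3, a difference of 0.62 on the log2 scale (p = 0.30 in a two-sided exact permutation test, 0.375 adjusted over 5 ratios). For *Cd3d* to *Cd3e* the difference was 0.18 (p = 0.70 by the same exact test), and for *Cd247* to *Cd3e* it was -0.24 (p = 0.20 by the same exact test). By contrast, *Cd8a* to *Cd3e* was 1.97 ± 0.219 in the TEff cells and 4.04 ± 0.436 in the TRM-like cells (SD, n = 3 per group) with no overlap, a difference of 1.04 (p = 0.10 by the same exact test, 0.25 adjusted).

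Of the 3 constant genes of the receptor chains, *Trac* and *Trbc2* were above every TEff sample in TRM-like replicates 1 and 2 and below every TEff sample in replicate 3, and *Trbc1* was above them in replicate 2 alone. *Trac*, the alpha chain constant gene, was at 353, 392, and 355 CPM in the TEff samples, at 432 and 489 CPM in TRM-like replicates 1 and 2, and at 279 CPM in replicate 3. *Trbc2*, a beta chain constant gene, was at 1808 to 1862 CPM in the TEff samples, at 2124 and 2359 CPM in TRM-like replicates 1 and 2, and at 1244 CPM in replicate 3. *Trbc1*, the other beta chain constant gene, was at 515 to 545 CPM in the TEff samples and at 517, 626, and 348 CPM in TRM-like replicates 1, 2, and 3. None of these 3 genes passed the test, with log2 fold changes of -0.09 to 0.13. Over the 14822 well-counted genes, 7.57% had replicates 1 and 2 above and replicate 3 below every TEff sample. Among the members, *Cd3d* and *Zap70* did. The OT-I receptor is a transgene, and *Trbc1* and *Trbc2* are near-identical, so that reads could be split between them in counting. Summed per kilobase of gene length, the 4 CD3 and zeta chain genes were at 819 to 880.1 CPM per kilobase in the TEff samples, at 1468 and 1608 in TRM-like replicates 1 and 2, and at 797 in replicate 3. The coreceptor genes summed in the same way were at 307 to 329 CPM per kilobase in the TEff samples and at 531, 578, and 572 in TRM-like replicates 1, 2, and 3, with no such split. *Cd3g* made up most of the CD3 sum, at 501 to 525 CPM per kilobase in the TEff samples and 1037, 1140, and 507 in the TRM-like replicates. *Cd3e* and *Cd247* were not above every TEff sample in both TRM-like replicates 1 and 2.

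**Figure D3:**
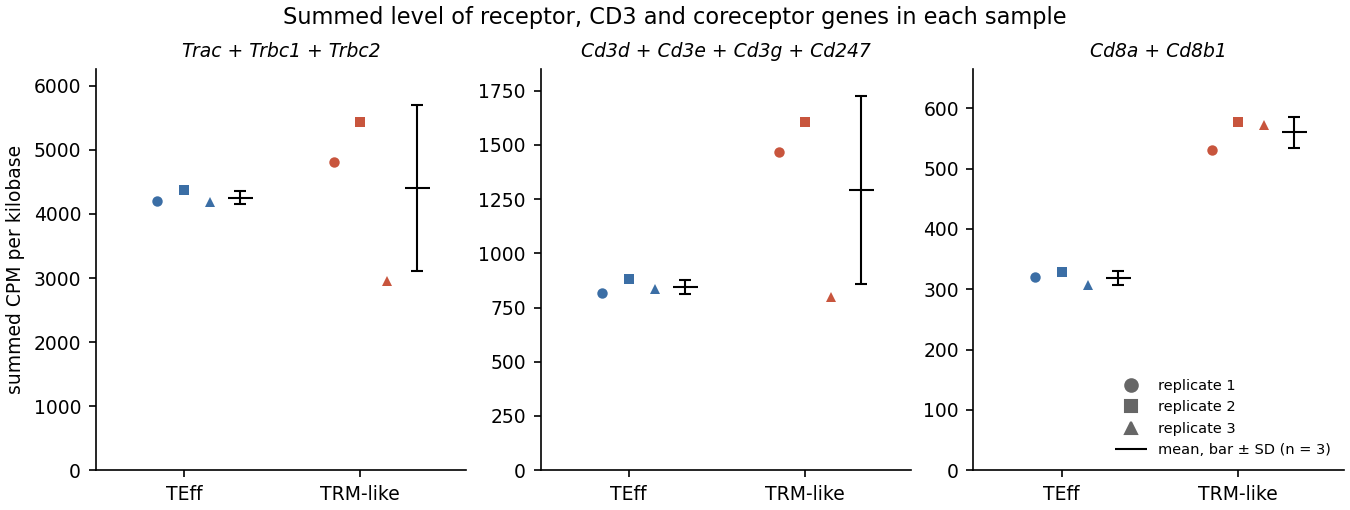
Summed level in CPM per kilobase of gene length (y axis, from 0) of the receptor constant genes, the CD3 and zeta chain genes, and the coreceptor genes in each sample, with the mean ± SD (n = 3) beside each group. TRM-like replicate 3 lies at 797 for the CD3 and zeta chain genes, below the TEff samples, and at 572 for the coreceptor genes, beside the other TRM-like samples. *Cd3g* makes up most of the CD3 sum.

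Of the 4 proximal signaling members, *Cd5* fell and *Zap70*, *Lat*, and *Ptprc* did not pass the test. *Cd5*, whose product restrains receptor signaling, was at 162, 172, and 148 CPM in TEff replicates 1, 2, and 3 and at 91.1, 96.7, and 74.5 CPM in the TRM-like replicates. Every TRM-like sample was below every TEff sample, with means of 161 ± 12.1 and 87.4 ± 11.6 CPM (SD, n = 3 per group). The log2 fold change of *Cd5* was -0.88 (SE 0.14, adjusted p = 0.0131). The call was lost without TEff replicate 1, 2, or 3 (adjusted p = 0.0982, 0.0673, and 0.0697 in turn) and without TRM-like replicate 1 (adjusted p = 0.0523), though its log2 fold change stayed between -0.96 and -0.78 in all 15 other fits.

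*Zap70*, the kinase gene, was at 217, 204, and 217 CPM in the TEff samples and at 247, 271, and 202 CPM in the TRM-like samples. TRM-like replicate 3 was below every TEff sample and the other TRM-like samples above, and the log2 fold change was 0.17 (SE 0.15, adjusted p = 0.648). *Lat*, the adaptor gene, was at 250.2, 245, and 261 CPM in the TEff samples and at 292, 332, and 324 CPM in the TRM-like samples. The groups did not overlap, but its log2 fold change of 0.33 (SE 0.13, adjusted p = 0.273) did not pass. *Ptprc*, the gene of the phosphatase CD45, had the highest counts of the members, at 2081, 2102, and 2067 CPM in the TEff samples and 1779, 1848, and 1732 CPM in the TRM-like samples. All TRM-like samples were lower, with a log2 fold change of -0.22 (SE 0.14, adjusted p = 0.530). Counts per gene do not separate the isoforms of CD45.

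**Figure D4:**
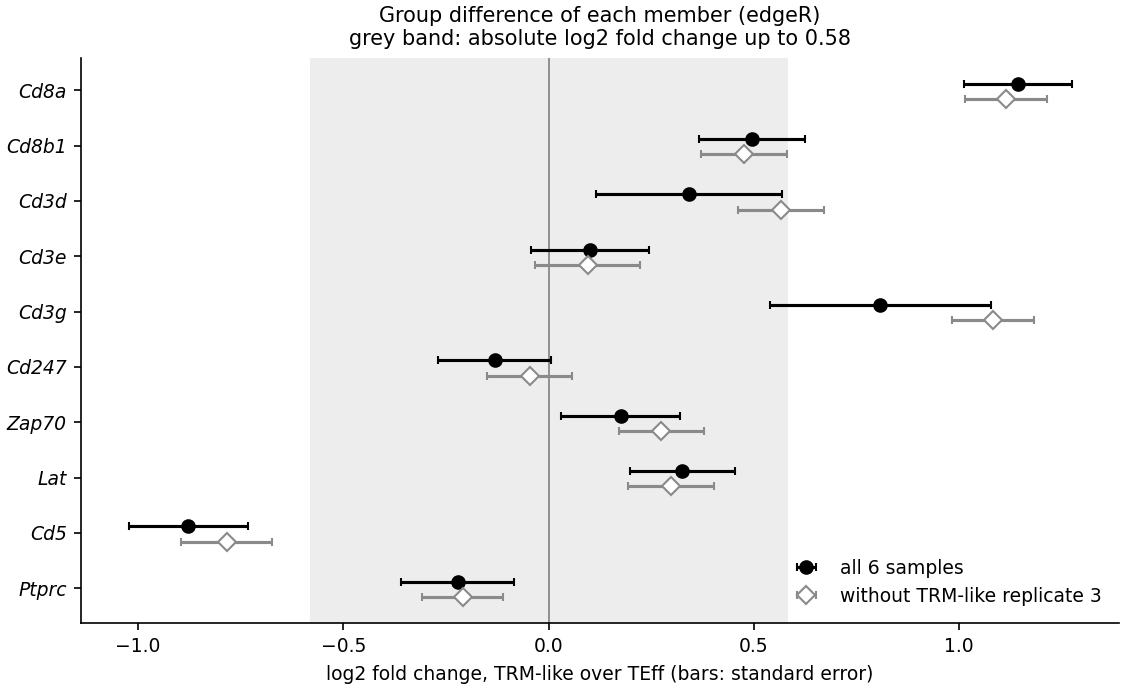
Log2 fold change of each member in the TRM-like over the TEff cells (x axis, bars are standard errors from edgeR), with all 6 samples (black) and without TRM-like replicate 3 (open grey). *Cd8a* lies above the band of 0.58 and *Cd5* below it in both fits, and *Cd3g* moves from 0.81 to 1.08 with a smaller error.

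Per kilobase of gene length, the members ranked in the TEff cells from *Cd3g* (511 ± 12.7 CPM per kilobase, SD, n = 3) through *Ptprc* (407), *Cd3d* (227), *Lat* (203), *Cd8b1* (179), *Cd8a* (139), *Zap70* (94.7), *Cd3e* (71.5), and *Cd5* (51.4) to *Cd247* (36.0). No neighbors in this order overlapped between their samples. In the TRM-like cells *Cd3g* (894 ± 339.7) and *Ptprc* (349) were again the highest, followed by *Cd8a* (307), *Cd3d* (287), *Lat* (254), *Cd8b1* (253), *Zap70* (107), *Cd3e* (76.6), *Cd247* (32.8), and *Cd5* (28.0). Among them, *Cd8a* and *Cd3d*, *Cd3d* and *Lat*, *Lat* and *Cd8b1*, and *Cd247* and *Cd5* overlapped between samples. *Cd8a* thus stood below *Cd8b1* in every TEff sample and above it in every TRM-like sample on the deposited lengths. The order turns with the lengths taken, since the later annotation gives more exon bases to every member, for example 18764 in place of 5119 for *Ptprc*. With those bases, a choice made after seeing the data, *Ptprc* went from place 2 to place 5 in the TEff cells (111 CPM per kilobase) and place 6 in the TRM-like cells (95.2), and *Cd8a* (265) stood at place 2 in the TRM-like cells after *Cd3g* (279 ± 106).

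Further genes of the proximal receptor pathway were read from lists by role. Of 42 such genes, all tested, 3 rose, 2 fell, and 37 did not pass the threshold, which 3.01% of all genes tested passed. The median log2 fold change of the 42 genes was -0.04, against 0.02 over all genes.

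Of the 5 kinases, 2 rose. *Fyn*, a Src family kinase that like Lck phosphorylates the CD3 tails, was at 99.6, 128, and 103 CPM in the TEff samples and at 203, 214, and 163 CPM in the TRM-like samples, which did not overlap (log2 fold change 0.81, SE 0.16, adjusted p = 0.0313). *Txk*, a Tec family kinase, was at 21.4 to 25.1 CPM in the TEff samples and at 49.8, 45.3, and 39.7 CPM in the TRM-like samples (log2 fold change 0.92, SE 0.14, adjusted p = 0.00877). *Lck* itself, the kinase that CD8 carries, was at 328, 352, and 368 CPM in the TEff samples and at 366 to 382 CPM in the TRM-like samples (log2 fold change 0.10, SE 0.13, adjusted p = 0.788).

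Among 15 adaptors and effectors, 1 fell. *Themis*, which binds Grb2 and tunes receptor signaling, was at 407, 333, and 424 CPM in the TEff samples and at 251, 244, and 247 CPM in the TRM-like samples (log2 fold change -0.65, SE 0.14, adjusted p = 0.0449). *Lcp2*, the adaptor that works beside Lat, had a log2 fold change of -0.02 (SE 0.12, adjusted p = 0.967). Among 14 inhibitors, 1 rose and 1 fell, both of them Dok adaptors that dampen signaling. *Dok1* was at 25.9 to 27.5 CPM in the TEff samples and at 57.4, 64.0, and 37.7 CPM in the TRM-like samples (log2 fold change 0.99, SE 0.19, adjusted p = 0.0274). *Dok2* was at 113 to 118 CPM in the TEff samples and at 63.4, 64.2, and 52.8 CPM in the TRM-like samples (log2 fold change -0.94, SE 0.13, adjusted p = 0.00557). *Csk*, which adds the inhibitory phosphate to Lck that CD45 removes, had a log2 fold change of 0.18 (SE 0.13, adjusted p = 0.578). None of the 5 accessory receptors passed (0 higher, 0 lower), with 0.0504 as their lowest adjusted p. All TRM-like samples lay below in 2 of them and above in 1, against 9.71% and 10.6% of all genes.

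The 5 calls depended on the samples. *Dok2* passed in 5 of the 6 leave-one-out fits and missed the threshold without TEff replicate 3 (adjusted p = 0.0504). *Txk* passed in 4 of the 6 and missed it without TEff replicate 1 or 3 (adjusted p up to 0.0776). *Fyn*, *Themis*, and *Dok1* passed only without TRM-like replicate 3, with the highest adjusted p of the 6 fits at 0.201, 0.262, and 0.156. The log2 fold changes in the 6 fits were 0.72 to 0.93 for *Fyn*, -0.75 to -0.56 for *Themis*, and 0.83 to 1.18 for *Dok1*. Without TRM-like replicate 3, 10 of the 42 genes passed, as did 14.0% of all genes in that fit.

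**Figure D5:**
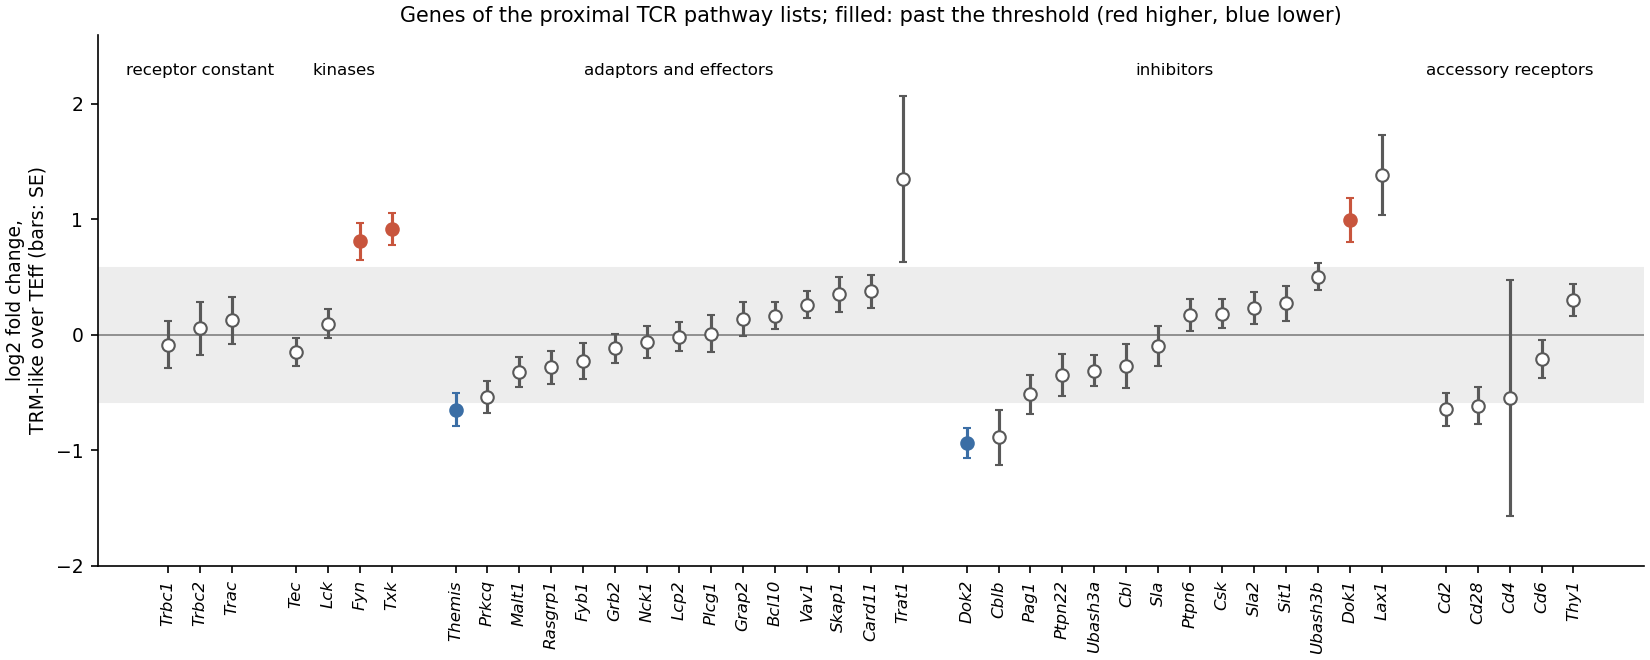
Log2 fold change in the TRM-like over the TEff cells (y axis, bars are standard errors from edgeR) of genes of the proximal receptor pathway, grouped by role and ordered by value. Filled points passed the threshold, namely *Fyn*, *Txk*, and *Dok1* above 0 and *Themis* and *Dok2* below it.

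Of 11 genes whose products are known to act on the *Cd8* or *Cd4* loci or on the choice between these lineages, none rose (0) and 2 fell, against 1.52% and 1.48% of all genes tested. *Runx3*, the Runx factor that maintains *Cd8* and silences *Cd4* in CD8+ T cells, was at 55.5, 91.8, and 52.3 CPM in the TEff samples and at 183, 161, and 77.4 CPM in TRM-like replicates 1, 2, and 3. Replicate 3 lay within the TEff range, and the log2 fold change of 1.08 (SE 0.33) did not pass (adjusted p = 0.150), while without that sample it was 1.36 (adjusted p = 0.000258). *Runx1*, a related factor, was low and fell from 4.39, 7.39, and 3.59 CPM in the TEff samples to 0.741, 0.786, and 0.507 CPM in the TRM-like samples (log2 fold change -2.90, SE 0.35, adjusted p = 0.00301), and passed in all 6 leave-one-out fits. *Zbtb7b*, the gene of ThPOK, which drives the CD4 lineage and represses *Cd8*, was at 35.0, 40.2, and 38.7 CPM in the TEff samples and at 22.6, 25.1, and 16.9 CPM in the TRM-like samples. The decrease passed, with a log2 fold change of -0.82 (SE 0.17, adjusted p = 0.0335). That call was kept only without TRM-like replicate 2 or 3, and the adjusted p of the 6 fits reached 0.179, with log2 fold changes of -0.95 to -0.68. *Bcl11b*, a T cell identity factor, had a log2 fold change of -0.03 (SE 0.16, adjusted p = 0.964).

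The genes most like *Cd8a* across the 6 samples, by Pearson's r of log2 CPM among the 14822 well-counted genes, were *Pdlim5* (r = 0.9995), *Rragd* (r = 0.9988), and *Ski* (r = 0.9972). For *Cd8b1* they were *Prss16* (r = 0.9939), *Ap5m1* (r = 0.9938), and *Vti1a* (r = 0.9895). These values describe 6 samples in 2 groups, so that any gene with separate groups and little spread has a high r, and 237 genes had an r above 0.95 with *Cd8a*. *Ski*, which encodes a repressor of TGF-β signaling, was at 39.4, 38.6, and 38.1 CPM in the TEff samples and at 86.6, 86.5, and 84.6 CPM in the TRM-like samples. *Ski* was picked by its correlation with *Cd8a*, so its likeness to *Cd8a*, with replicate 3 beside the others, was set by that choice. A link of *Cd8a* to TGF-β signaling was not tested.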

How the data were processed

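Stranded total RNA libraries were sequenced from 3 TEff and 3 TRM-like samples, grouped by their titles. Reads were trimmed by the authors (cutadapt 4.8), aligned to GRCm39 and assigned to GENCODE genes in Rsubread, and the authors deposited the raw counts beside each gene's length. Strand and multi-mapping settings were not given in the sources used here. The authors' batch correction applied to their plots, and its batch is not named, so none was fitted.

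A later GENCODE release on GRCm39 gave symbols and coordinates and matched 56620 of 57126 genes. The test took genes detected (1 count or more) in 3 or more samples and was run with edgeR 4.0.16 (TMM, glmQLFit, glmQLFTest, R 4.3.3). The standard error is the log2 fold change divided by the square root of F. CPM use TMM-scaled library totals. Per-kilobase levels use the deposited lengths. Ratios were compared by exact permutation tests over samples. Alternatives were DESeq2 1.42.0, limma-voom (limma 3.58.1), other size factors, filters, a threshold on adjusted p alone, the replicate block, and leave-one-out fits.

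The named genes are the 10 members, pathway and *Cd8* regulator genes past the threshold or named by role, the 3 genes most correlated with each coreceptor gene, and the highest gene of each marker list. A pathway gene is counted in its list but not reported here. The members and lists were chosen with earlier results of these data known. Promoter motifs and the genes shown with them were chosen after the values were seen.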

Additional observations from a re-analysis of the deposited data

How the results depend on the processing

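The number of members past the threshold was 2 in the reported fit, 2 or 3 under every alternative that kept all 6 samples, and 1 to 3 across the 6 leave-one-out fits. *Cd3g* was the member added, without TRM-like replicate 3, with no filter (adjusted p = 0.000437), and with the replicate block (adjusted p = 0.00395), but not with that block over the 14822 well-counted genes (10 or more counts in all samples, adjusted p = 0.115). All 10 members kept the sign of their log2 fold change in all 15 other fits. Of the 42 pathway genes, 5 passed in the reported fit, 9 with DESeq2, 10 with no filter, 10 with the replicate block, 8 with that block over the well-counted genes, and 0 to 10 with a sample left out, the lowest without TEff replicate 3 and the highest without TRM-like replicate 3. Over all genes the number past the threshold was 786, against 1264 with DESeq2, 1868 with no filter, 2034 with the replicate block (903 over the well-counted genes), and 263 to 3579 with a sample left out. With no filter the median log2 fold change of all genes was 0.38, in a fit of 42234 genes. Same-numbered samples had correlations of -0.292, 0.309, and 0.389 in their deviations from the group means. TEff replicate 2 with TRM-like replicate 1 had 0.519. With 3 samples per group, these correlations cannot show whether same-numbered samples were prepared together, and the labels do not say. A sign-flip test by replicate number on the *Cd8a* to *Cd8b1* ratio cannot go below the p = 0.25 it gave (exact). The *Cd3d* to *Cd3e* difference was -0.074 to 0.467 on the log2 scale with a sample left out and turned negative without TRM-like replicate 2. Where calls moved, the cause was not tested.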
